A study of Mus musculus with 2 samples.

Results

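The genes described here mark the disease-associated and the homeostatic state of microglia, the resident macrophages of the brain. They were chosen by name, 33 in all, of which 20 are disease and 13 homeostatic genes, and each was read by its symbol. The files gave counts for 32 of them, 19 disease and 13 homeostatic, among 32285 genes in all. Clec7a was not analysed here. RNA of single nuclei was read by 3′ droplet sequencing of flash-frozen hippocampus from mice aged 8 months. All mice carried the 5XFAD transgenes, which are driven in neurons by the Thy1 promoter, a model that forms amyloid plaques. One group was 5XFAD alone. The other was 5XFAD x MR1 KO, labelled as lacking MR1, which displays microbial riboflavin intermediates to MAIT cells, a kind of innate-like T lymphocyte. Each group was 1 library of a male and a female mouse pooled, so no difference between the groups could be tested. Mice without the amyloid transgenes were not analysed here.

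In the healthy brain, microglia express a sensing program that includes the purine receptors P2ry12, P2ry13 and P2ry6, surface receptors such as Siglech and Gpr34, the TGF-beta receptor Tgfbr1 and the transcription factors Sall1 and Maf. Near amyloid plaques, microglia take up another program with genes of lipid handling (Lpl), lysosomes and phagocytosis (Cst7, Cd63, Gpnmb), chemokines (Ccl3, Ccl4) and secreted factors (Spp1, Igf1). In the usual account the disease program comes on while homeostatic genes are lowered, partly under the receptor Trem2. Reading the genes nucleus by nucleus asks whether both programs were detected in the same nuclei.

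After filtering, the 5XFAD library held 12321 nuclei with 240 microglia among them, and the library labelled MR1 knockout 17707 with 733. They held medians of 1246 and 880 UMIs (unique molecular identifiers, one for each RNA molecule counted) and 312457 and 697327 UMIs in sum, and levels are given as CPM, a gene's UMIs scaled to 1000000 UMIs in sum. Csf1r, the growth factor receptor of macrophages and a defining marker, stood at 483 and 589 CPM in microglia and 12.2 and 13.1 CPM in dentate granule neurons. Markers of monocytes and neutrophils summed to 0 and 5.74 CPM there with 9 and 6 of 9 genes at 0, those of border macrophages to 115 and 83.2 CPM with 4 and 2 of 9 at 0, and those of T lymphocytes to 19.2 and 54.5 CPM with 5 and 1 of 9 at 0. Choroid plexus markers summed to 743 and 3551 CPM in microglia, and the median mitochondrial share was 3.46% and 2.32%. Striatal neurons numbered 1112 and 6 nuclei. The part of these differences in the results was not tested. Mr1 RNA stood at 0.585 CPM (0.407 to 0.814) in the 5XFAD library and 1.2 CPM (0.938 to 1.52) in the other. This goes against the label, although a 3′ tag outside the deleted part checks nothing, and directions below rest on the label. The libraries shared 182 barcodes, none of them of microglia in both. Intervals are 95% and cover counting error only.

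Across cell classes, 27 of the 32 members had their highest level in microglia in both libraries, among the 10 and 14 classes with at least 50 nuclei. The members took no part in the clustering. As an alternative, microglia were taken as nuclei with 3 or more microglial marker genes detected, and more than of any other class. That rule took 1155 and 1977 nuclei, and 15 members were highest there. All 13 homeostatic members reached at least 5 times the median of the other classes in microglia. Siglech, a sialic acid-binding receptor of microglia, stood at 579 and 562 CPM in microglia and at most 22.1 CPM (astrocytes) and 46.0 CPM (endothelial and mural cells) elsewhere. Sall1, a transcription factor that maintains microglial identity, stood at 122 and 115 CPM, with astrocytes next at 14.8 and 35.9 CPM. In neurons of 4 classes summed (dentate granule, CA1, CA2/CA3 and inhibitory), Siglech had 0.914% and 1.26% and Sall1 0.983% and 1.63% of the microglial level.

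P2ry12, the ADP receptor that steers microglial processes, was also detected in neurons. It stood at 569.7 and 480.4 CPM in microglia and 110.0 and 81.8 CPM in dentate granule neurons, which came second. The 4 neuron classes together had 13.5% and 14.9% of its microglial level. P2ry12 (chr3:59216272-59262871, minus strand, GRCm38) and P2ry13 (chr3:59207892-59210882, minus strand), a related ADP receptor, lie within Med12l, a Mediator subunit gene on the opposite strand. Med12l stood at 224 and 162 CPM in dentate granule neurons and 464 and 294 CPM in microglia. Strand use in the counting is not given in the sources used here, so reads of these genes cannot be told apart and the neuronal P2ry12 level is uncertain. P2ry13 had 3.07% and 3.05% of its microglial level in neurons.

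Maf was the homeostatic member with its highest level outside microglia. It stood at 269 and 259 CPM in inhibitory neurons and 195 and 182 CPM in microglia. Rasgrp3, an activator of Ras proteins, stood at 547 and 381 CPM in microglia and 196 and 163 CPM in oligodendrocytes, but had 0.243% and 0.611% of its microglial level in neurons. P2ry6, Tmem119, Gpr34, Selplg, Fcrls, Olfml3 and Tgfbr1 were all highest in microglia and had 1.16% to 5.34% of that level in neurons. Gpr34 overlaps Cask, and Maf overlaps Gm15655, on the opposite strand.

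The disease members were spread over more classes. Of the 19, 15 reached at least 5 times the median of the other classes and are the ones counted per nucleus below: Cst7, Lpl, Itgax, Spp1, Axl, Lyz2, Gpnmb, Igf1, Lgals3, Ccl3, Ccl4, Ch25h, Arhgap24, Myo1e and Apobec1. The members just inside the limit were Gpnmb at 6.16 and Lgals3 at 6.57 times. Just outside were the tetraspanins Cd9 and Cd63 at 4.16 and 3.14 times and Ank, a phosphate transporter, at 4.02 times. Cadm1, a cell adhesion molecule, was at 1.45 times, with 887 and 671 CPM in microglia and 1092 and 988 CPM in astrocytes, where it was highest.

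Several disease members had a level in another class near or above the microglial one in at least 1 library. Igf1, a growth factor, stood at 249.6 and 141 CPM in microglia and 101 and 104 CPM in inhibitory neurons. The neuronal level was thus well below the microglial one in 5XFAD and closer to it in the other library. Arhgap24, a GTPase-activating protein, stood at 435 and 402 CPM in microglia, and at 1123 CPM in the 90 committed oligodendrocyte precursors of the library labelled MR1 knockout. In the same precursors Cd9 stood at 973 CPM, beside 991 CPM in microglia. Gpnmb, a glycoprotein of phagocytes and pigment cells, was highest in oligodendrocyte precursors, at 42.4 and 38.0 CPM, with 32.0 CPM (15.3 to 58.9) and 34.4 CPM (22.1 to 51.2) in microglia, intervals that hold both precursor levels. Spp1, the secreted protein osteopontin, stood at 119 CPM in vascular leptomeningeal cells of the library labelled MR1 knockout, beside 151 CPM in microglia. Axl, a receptor that binds dying cells, stood at 22.4 and 47.3 CPM in microglia and 20.3 and 38.3 CPM in astrocytes. Lgals3, a galectin, had 4 and 4 UMIs in microglia and could not be ranked.

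Apobec1, an RNA editing enzyme, was the most restricted disease member, at 162 times the median of the other classes. It stood at 173 and 175 CPM in microglia with 0.158% and 0.160% of that level in neurons, and microglia held 25.6% and 38.5% of all its UMIs. Cst7, a cathepsin inhibitor, had 7.85% and 7.60% of its microglial level in neurons, and Lyz2, a lysozyme, 5.86% and 6.48%. Lyz2 has a closely related copy, Lyz1, and Ccl3 and Ccl4 resemble each other, so their counts are uncertain where reads match both. Cd9, Ank, Igf1, Ch25h and Arhgap24 overlap genes on the opposite strand.

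**Figure D1:**
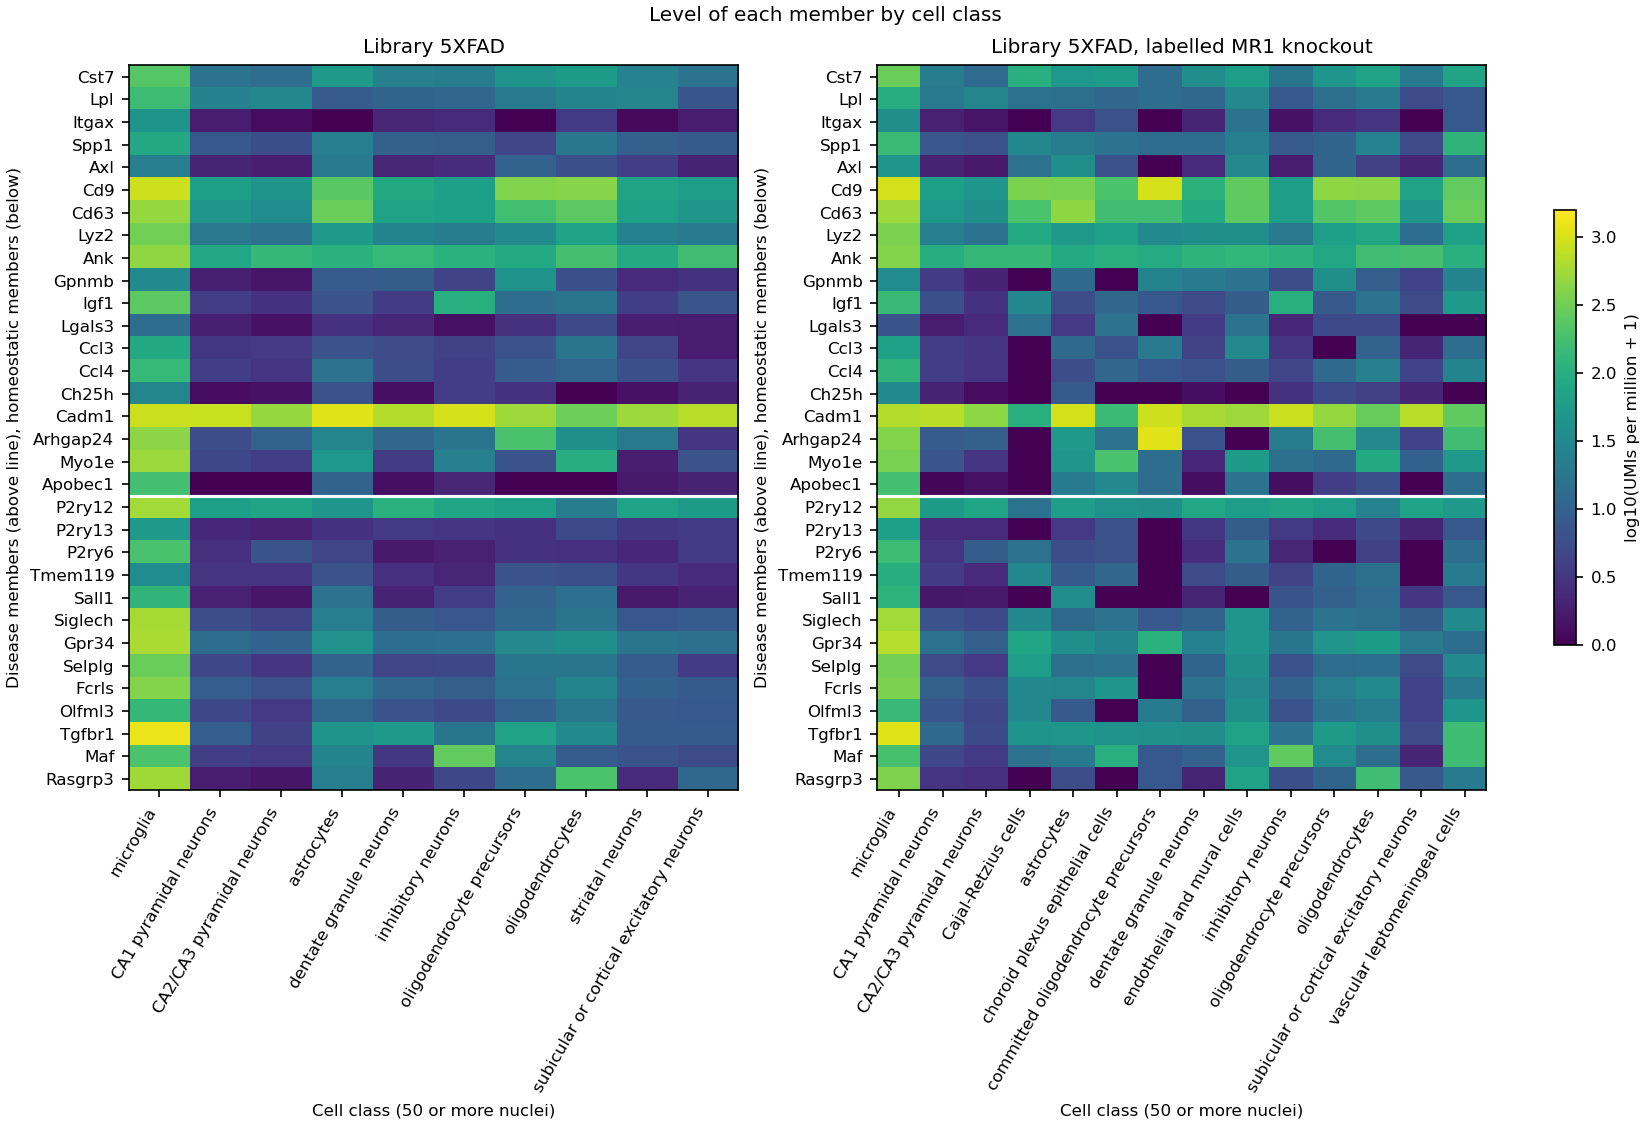
Level of each of the 32 members (rows, disease above the white line) in each cell class with at least 50 nuclei (columns), as log10 of CPM plus 1, for the 5XFAD library (left) and the library labelled MR1 knockout (right). Microglia are the brightest column in most rows, while Cadm1 is bright in nearly all classes, Maf also in inhibitory neurons and Arhgap24 in committed oligodendrocyte precursors.

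Within microglia, single members were detected in very different shares of nuclei, given for the 5XFAD library and the other. Cd9, Cd63 and Ank, disease members of broad expression, had a UMI in 63.8% and 52.8%, 43.8% and 34.8% and 35.4% and 26.5% of microglial nuclei. Lyz2, Arhgap24 and Myo1e had one in 33.8% and 25.1%, 32.9% and 27.6% and 36.7% and 24.0%, and Cst7, Igf1 and Lpl in 22.5% and 20.6%, 19.6% and 11.2% and 14.6% and 8.19%. The chemokine genes Ccl3 and Ccl4 stood at 86.4 and 67.4 CPM and 138 and 120.5 CPM and were found in 7.92% and 5.73% and 12.1% and 8.05% of nuclei. Itgax, the integrin chain CD11c, had 14 and 26 UMIs, and Ch25h, which makes 25-hydroxycholesterol, 9 and 22. These and Gpnmb, Axl and Lgals3 were the sparsest disease members. Among homeostatic members, Tgfbr1 was found in 67.1% and 55.4% of nuclei, Gpr34 in 48.3% and 45.2%, Siglech in 43.8% and 35.7%, P2ry12 in 43.3% and 34.1% and Rasgrp3 in 45.0% and 29.3%. Fcrls, Selplg, P2ry6, Maf, Olfml3 and Sall1 were found in fewer, from 34.2% and 27.7% for Fcrls to 14.2% and 9.82% for Sall1, and P2ry13 and Tmem119 in 6.25% and 5.87% and 4.17% and 8.46%. Thinned to 500 UMIs per nucleus, the shares were 42.5% and 39.3% for Tgfbr1, 21.2% and 22.0% for P2ry12, 35.4% and 35.1% for Cd9, 12.1% and 12.3% for Cst7 and 8.75% and 7.64% for Igf1. In the 4 neuron classes, whose nuclei held medians of 4454 and 2662 UMIs, the thinned shares were 1.09% and 1.25% for Tgfbr1, 4.25% and 3.67% for P2ry12, 4.05% and 4.93% for Cd9, 1.39% and 1.34% for Cst7 and 1.09% and 1.11% for Igf1. All 5 were thus found in more microglial than neuronal nuclei at equal depth.

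Between the libraries, most members stood close together in microglia. Of all 8586 genes with at least 20 UMIs in microglia, 15.2% were at least 1.5-fold higher in the library labelled MR1 knockout and 10.2% at least 1.5-fold lower. Of the 31 members with that many UMIs, 3 were at least 1.5-fold higher (9.68%) and 2 at least 1.5-fold lower (6.45%), both shares below those of all genes. Members and all genes were not matched for UMIs per gene, on which passing 1.5-fold also depends. With mixed microglial clusters included, 13 of 32 were past 1.5-fold (40.6%), above the 22.4% of all genes there, and the median log2 ratio became 0.36 for disease and 0.43 for homeostatic members. The median log2 ratio was -0.05 over 18 disease members and -0.09 over 13 homeostatic members, beside -0.00064 over all genes. Summed, the disease members stood at 5294 and 4936 CPM and the homeostatic members at 5009 and 4715 CPM.

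Disease members lay on both sides. Spp1 stood at 83.2 CPM (54.4 to 122) in the 5XFAD library and reached 151 CPM (123 to 182) in the one labelled MR1 knockout, which is 1.81 (1.17 to 2.90) times as much. Cst7 stood at 224 CPM (175 to 283) and 298 CPM (259 to 342), with a ratio of 1.33 (1.01 to 1.77). In CPM both were higher in the library labelled MR1 knockout by more than counting error over all nuclei. The share of nuclei with a UMI was not higher, at 6.25% and 5.46% for Spp1 and 22.5% and 20.6% for Cst7. Thinned, these shares were 2.5% and 3.68% and 12.1% and 12.3%. The ratio intervals take UMIs of one nucleus as independent, so they can be too narrow where few nuclei hold many UMIs. In female nuclei alone Spp1 had a ratio of 1.33 (0.683 to 2.74) and Cst7 of 1.04 (0.695 to 1.59), and thinned they had 2.62 (1.19 to 6.81) and 1.18 (0.789 to 1.82), so the interval of Spp1 held 1 in female nuclei and that of Cst7 under both. Igf1 stood at 249.6 CPM (197 to 312) and 141 CPM (114 to 171), with a ratio of 0.563 (0.414 to 0.768). Lpl, the lipase that frees fatty acids from lipoproteins, stood at 154 CPM (113 to 204) and 98.9 CPM (77.0 to 125), with a ratio of 0.644 (0.439 to 0.951). Myo1e, a myosin of phagocytic cups, had a ratio of 0.686 (0.560 to 0.841) and Cadm1 of 0.757 (0.651 to 0.882). These 4 were lower beyond counting error. With microglia taken by the number of marker genes detected, Igf1 turned to 1.04. Thinned, the intervals of Igf1, Lpl and Myo1e held 1, at ratios of 0.655, 0.616 and 0.717. Axl had a ratio of 2.11 (0.919 to 5.66) on 7 and 33 UMIs. The other 11 disease members had ratios from 0.780 (Ccl3) to 1.13 (Lyz2), with intervals that held 1.

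Among homeostatic members, Tmem119, a membrane protein that tells microglia from other macrophages, was past 1.5-fold. It had 11 and 68 UMIs, or 35.2 CPM (17.6 to 63.0) and 97.5 CPM (75.7 to 124), with a ratio of 2.77 (1.45 to 5.81). Tmem119 was also higher outside microglia, at ratios of 2.56 (1.26 to 5.72) in dentate granule neurons, 3.0 (1.19 to 8.97) in inhibitory neurons and 2.82 (1.02 to 8.96) in oligodendrocytes, on at most 42 UMIs a library, while CA1 and CA2/CA3 pyramidal neurons were at 1.22 and 0.696. Rasgrp3 was lower, at 547 and 381 CPM and a ratio of 0.697 (0.573 to 0.850), and Tgfbr1 stood at 1264 and 1117 CPM, a ratio of 0.884 with an interval that ended just below 1. Thinned, both intervals held 1, at 0.723 (0.526 to 1.003) for Rasgrp3 and 0.916 (0.755 to 1.12) for Tgfbr1. In female nuclei Rasgrp3 was at 0.660 (0.497 to 0.879) and Tgfbr1 at 1.01. P2ry12 had a ratio of 0.843 (0.701 to 1.02), Siglech of 0.970 (0.812 to 1.16) and Sall1 of 0.943 (0.634 to 1.43). The other 7 ran from 0.843 for P2ry6 to 1.23 for P2ry13, with intervals that held 1.

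By sex-linked RNA, 107 and 289 of the 240 and 733 microglial nuclei were called female and 24 and 48 male. The rest were not called. The rule differed by sex, with 2 or more Xist UMIs against 1 or more Y-linked UMIs, so these counts do not give the share of each mouse. Both mice of a library shared one capture. Igf1 stood at 249 and 139.7 CPM in female nuclei, and had 4 and 9 UMIs, a ratio of 1.5, in male nuclei. Tmem119 had 3 and 35 UMIs in female and 1 and 4 in male nuclei. Lpl was lower in the library labelled MR1 knockout in both, with ratios of 0.533 and 0.20, the second on 10 and 3 UMIs. Of the 31 members, 16 had ratios on the same side of 1 in both sexes. In male nuclei only 14 members had at least 20 UMIs, so many of these male ratios rest on few UMIs. The like share over all genes was not computed, and no conclusion is drawn from the count.

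Other genes of the same programs, in lists of 44 each, also lay on both sides. Of all 8586 genes measured, 4444 were higher in the library labelled MR1 knockout and 4142 lower, with 15.2% and 10.2% past 1.5-fold. This is the background for both lists. Of 40 other disease genes measured, 24 were higher in the library labelled MR1 knockout and 16 lower, 4 and 5 of them past 1.5-fold, with a median log2 ratio of 0.11. Apoe, the lipid carrier, stood at 8673 and 12742 CPM, a ratio of 1.47. Ctsd, a lysosomal protease, Trem2 and Fth1, a ferritin chain, had ratios of 1.38, 1.27 and 1.12. Among those with at least 50 UMIs, the highest ratios were those of Ctse at 2.31 and Grn at 1.51, and the lowest those of Hif1a and Mamdc2 at 0.594 each. Of 43 other homeostatic genes, 14 were higher and 29 lower, 1 and 3 past 1.5-fold, with a median log2 ratio of -0.16. Cst3 and Nav3 had ratios of 1.15 and 0.861. Among those with at least 50 UMIs, Smad3 at 1.57 (0.917 to 2.81) and Il10ra at 1.43 (0.865 to 2.46) were highest and Itga9 at 0.645 (0.377 to 1.12) and Mef2c at 0.689 (0.617 to 0.771) lowest, and of these 4 intervals that of Mef2c was clear of 1.

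**Figure D2:**
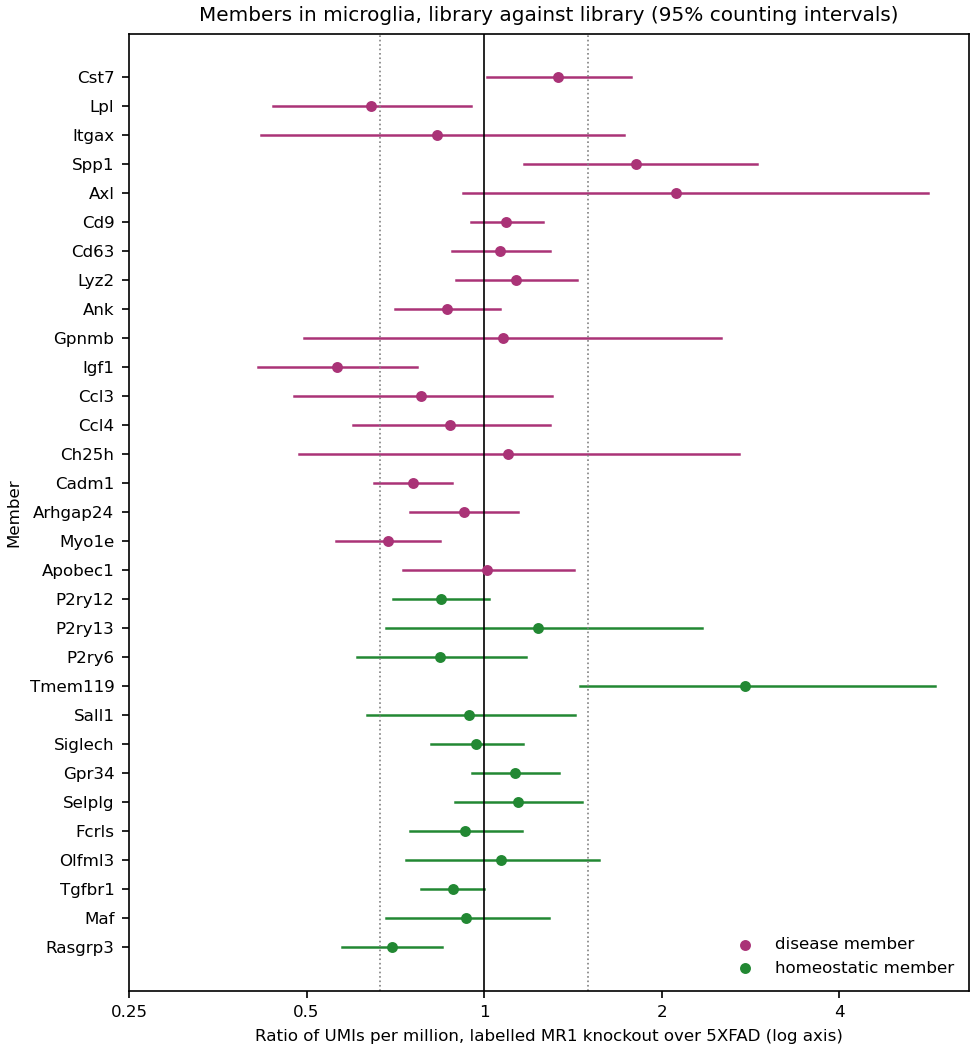
Ratio of CPM in microglia, library labelled MR1 knockout over 5XFAD (log axis), for the 31 members with at least 20 UMIs (rows; disease purple, homeostatic green), with 95% counting intervals, a solid line at 1 and dotted lines at 1.5-fold. Most intervals cross 1, while those of Spp1, Cst7 and Tmem119 lie above it and those of Igf1, Lpl, Myo1e, Cadm1, Rasgrp3 and Tgfbr1 below it.

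Nearly all microglial nuclei with disease RNA also held homeostatic RNA. Of the 15 counted disease members, at least 1 was detected in 80.4% (74.8 to 85.2%) of nuclei of the 5XFAD library and 72.0% (68.6 to 75.3%) of the other. At least 1 homeostatic member was detected in 97.9% and 95.6%. Nuclei with 3 or more disease members were 85 of 240, or 35.4% (29.4 to 41.8%), and 175 of 733, or 23.9% (20.8 to 27.1%). Of these, 84 of 85 (98.8%) and 168 of 175 (96.0%) held a homeostatic member, beside 45 of 47 (95.7%) and 194 of 205 (94.6%) of nuclei with no disease member. After thinning, 3 or more homeostatic members were held by 4 of 20 (20.0%) and 14 of 66 (21.2%) of nuclei with 3 or more disease members, and by 28 of 92 (30.4%) and 108 of 316 (34.2%) of those with none. At equal depth the share with several homeostatic members was thus lower in nuclei with 3 or more disease members, with intervals that overlapped. In nuclei with 1 or 2 disease members it was 31.25% and 34.5%, no lower than in those with none. The share with at least 1 homeostatic member was near its ceiling with all UMIs. In the deeper nuclei of the 4 neuron classes, with all UMIs, that share was 52.2% and 42.6%. At least 1 counted disease member was detected in 39.7% and 31.3% of these neurons. Disease RNA with no homeostatic member was found in 3 and 21 microglial nuclei.

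Depth bears on these shares, and they were read again at equal depth. With every nucleus thinned to 500 UMIs, which left none out, 3 or more disease members were detected in 20 of 240, or 8.33% (5.16 to 12.6%), and 66 of 733, or 9.0% (7.03 to 11.3%). Each of these shares lay within the other's interval. At least 1 disease member was then detected in 61.7% and 56.9%, and members of both kinds in 55.8% and 50.3%. In the 4 neuron classes, thinned alike, at least 1 disease member was detected in 6.60% and 7.06% of nuclei, and 3 or more in 0 of 5411 and 0 of 9574, which by a limit of 3 counts allows shares of up to 0.0554% and 0.0313%. With all UMIs of these deeper nuclei, 3 or more were detected in 1.53% and 0.679%. Other glia had higher shares than these neurons when thinned alike. At least 1 disease member was detected in 16.4% and 18.4% of oligodendrocytes and 18.9% and 17.4% of oligodendrocyte precursors. In astrocytes the shares were 13.95% and 15.8%. Nuclei with 3 or more were 2 of 798 and 1 of 928 oligodendrocytes and 0 of 238 and 1 of 478 precursors. Among astrocytes they were 0 of 258 and 0 of 240. At least 1 homeostatic member was detected in 10.2% and 10.4% of thinned neurons and 90.4% and 88.0% of thinned microglia. For thinned oligodendrocytes, oligodendrocyte precursors and astrocytes the shares were 19.7% and 18.6%, 11.3% and 12.8% and 11.2% and 16.7%.

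**Figure D3:**
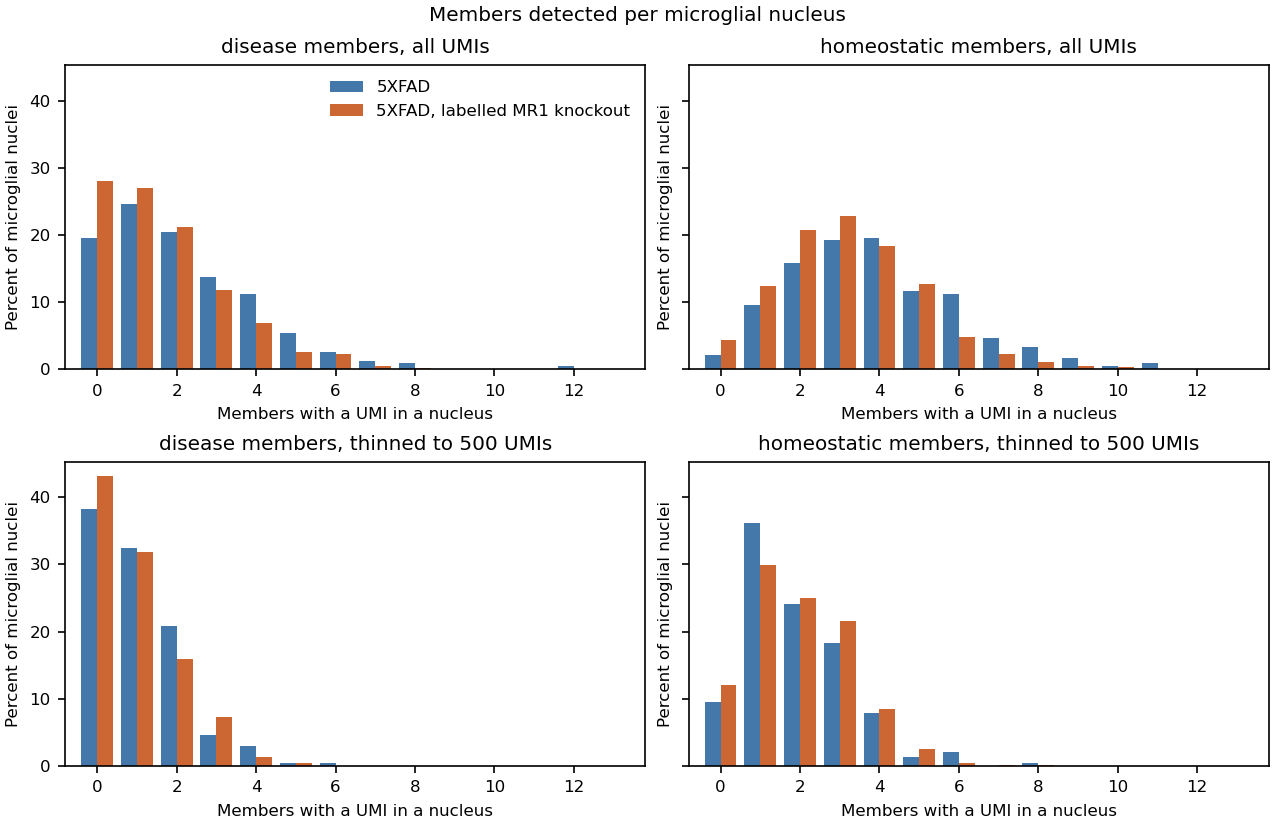
Percent of microglial nuclei (vertical) by the number of disease (left) or homeostatic (right) members with a UMI (horizontal), with all UMIs (top) and thinned to 500 UMIs (bottom), blue for 5XFAD (240 nuclei) and orange for the library labelled MR1 knockout (733 nuclei). With all UMIs, 19.6% and 28.0% of nuclei had no disease member, and after thinning 38.3% and 43.1%.

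Whether homeostatic RNA was lower where disease RNA was detected was asked within each library, by the number of disease members in a nucleus. Per UMI of the nucleus, the summed homeostatic level was nearly flat. It was 5135, 5096 and 4868 CPM in the 47, 108 and 85 nuclei with 0, with 1 or 2, and with 3 or more disease members of the 5XFAD library, a last-to-first ratio of 0.948 (0.823 to 1.09). In the 205, 353 and 175 nuclei of the other it was 4796, 4688 and 4689 CPM, a ratio of 0.978 (0.890 to 1.07). Nuclei with 3 or more disease members were deeper than those with none, with median UMIs of 1437 against 1174 and 1043 against 797. After thinning the ratios were 0.881 and 0.95. The result depends on which nuclei count as microglia: a second clustering, adopted after values of the members had been seen, left out nuclei with RNA of other classes, and without it the ratios were 0.867 and 0.710. With nuclei taken as microglia by the number of marker genes detected in place of clusters, 1155 and 1977 nuclei, the direction turned, to 3.57 and 2.46. General microglial markers, none of them a member, were higher in nuclei with 3 or more disease members, at ratios of 1.18 (1.09 to 1.28) and 1.54 (1.46 to 1.62), and thinned 1.19 and 1.39, so the homeostatic sum was lower relative to those markers. These markers share genes with both lists of other disease and homeostatic genes. Among them is Trem2, of the disease list, at ratios of 2.03 and 2.87, so they are not a reference apart from the disease program.

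Single homeostatic members differed from this flat sum. Of all genes with at least 20 UMIs, 19.1% were at least 1.5-fold higher and 16% at least 1.5-fold lower in nuclei with 3 or more disease members of the 5XFAD library, against 14.2% and 15.7% in the other. Of 10 homeostatic members measured in the 5XFAD library, 2 were past that fold higher (P2ry6 and Rasgrp3) and 2 lower (Siglech and Maf). Of 13 in the other, 0 were higher and 4 lower (P2ry12, P2ry13, Tmem119 and Maf). Without the second clustering, 2 of 11 and 7 of 13 were lower, the latter being P2ry12, P2ry13, Tmem119, Sall1, Siglech, Selplg and Maf. Of all genes in those nuclei, 18.5% and 21.1% were lower.

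Maf and Siglech were lower in both libraries where disease members were detected. Maf stood at 305 and 93.2 CPM in nuclei with 0 and with 3 or more disease members of the 5XFAD library (ratio 0.305, 0.133 to 0.678) and at 285 and 167 CPM in the other (0.585, 0.365 to 0.926). Siglech stood at 790.0 and 466 CPM (0.590, 0.393 to 0.891) and at 651 and 450.2 CPM (0.692, 0.518 to 0.921). After thinning, with 2 or more against 0 disease members, Siglech had ratios of 0.329 (0.131 to 0.728) and 0.702 (0.471 to 1.03). Maf had ratios of 0.597 (0.163 to 1.87) and 0.444 (0.188 to 0.942). Both stayed below 1, with one interval each that held 1. Tmem119 had 5 and 2 UMIs in the 5XFAD library and stood at 166 and 70.8 CPM in the other (0.428, 0.209 to 0.836), but after thinning had a ratio of 0.971 (0.378 to 2.33). P2ry12 stood at 592 and 590.0 CPM in the 5XFAD library (0.996, 0.654 to 1.55) and at 582 and 369 CPM in the other (0.634, 0.463 to 0.865). This difference between the libraries was not tested. P2ry13 had 2 and 7 UMIs in the first and 14 and 9 in the other, and Sall1 5 and 13 and 23 and 20, with ratios of 1.12 (0.376 to 4.03) and 0.770 (0.401 to 1.47). At this depth no difference was detectable for either gene.

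For the other homeostatic members no fall was seen beyond counting error in the microglia kept. P2ry6, a UDP receptor of phagocytic microglia, had ratios of 1.79 (0.768 to 4.84) and 1.09 (0.630 to 1.91). Rasgrp3 stood at 413 and 659.9 CPM (1.60, 0.998 to 2.66) and 308 and 419.8 CPM (1.36, 0.955 to 1.96). Tgfbr1 stood at 1311 and 1281 CPM (0.977, 0.738 to 1.31) and 953 and 1295 CPM (1.36, 1.11 to 1.66), and without the second clustering at ratios of 0.960 and 0.901. Gpr34, a receptor of lysophosphatidylserine, had ratios of 1.04 and 1.17, thinned 2.01 and 1.44, and without the second clustering 0.847 and 0.804. Fcrls, an Fc receptor-like protein, had ratios of 1.09 and 1.27, Selplg, a selectin ligand, of 0.842 and 0.751, and Olfml3, a secreted matrix protein, of 0.988 and 1.24, all with intervals that held 1. Without the second clustering Fcrls was at 0.957 and 0.901, Selplg at 0.728 and 0.563 (0.413 to 0.770), Olfml3 at 0.769 and 0.821 and P2ry6 at 1.18 and 0.793. The direction thus turned with the choice of nuclei for Gpr34 and Fcrls in both libraries, and for Tgfbr1, Olfml3 and P2ry6 in the one labelled MR1 knockout.

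**Figure D4:**
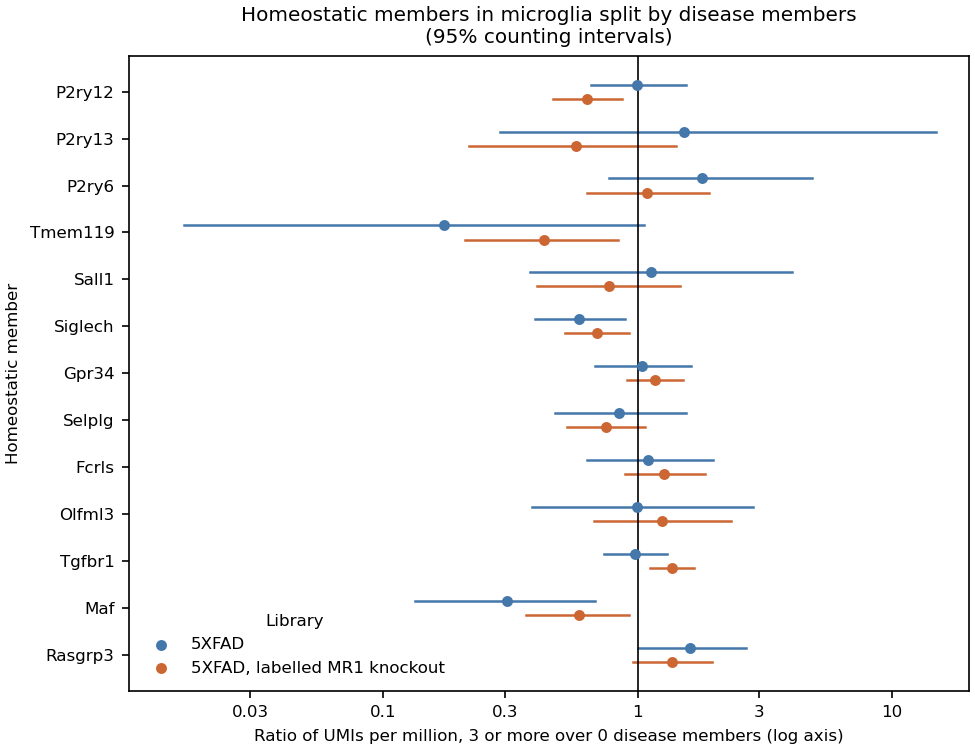
Ratio of CPM of each of the 13 homeostatic members (rows) in microglial nuclei with 3 or more over those with 0 disease members (log axis), blue for 5XFAD and orange for the library labelled MR1 knockout, with 95% counting intervals and a line at 1. Maf and Siglech lie below 1 in both libraries, while most other intervals cross 1.

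Disease members that took no part in the split were read in the same way. Ank stood at 162 and 714 CPM in nuclei with 0 and with 3 or more counted disease members of the 5XFAD library (4.42, 2.23 to 9.97) and at 194 and 551 CPM in the other (2.84, 1.92 to 4.31). Cd9 had ratios of 1.54 (1.06 to 2.26) and 2.03 (1.64 to 2.52). Both were higher in both libraries. Thinned, with 2 or more against 0, Ank was at 3.68 (1.74 to 8.49) and 2.23 (1.46 to 3.44) and Cd9 at 1.35 (0.830 to 2.20) and 1.88 (1.44 to 2.45). Without the second clustering Cd9 was at 1.06 (0.759 to 1.51) and 1.35 (1.12 to 1.65), so in the 5XFAD library its interval held 1 under both alternatives. Cd63 was at 1.07 and 2.09 and Cadm1 at 1.12 and 1.99, with intervals that held 1 in the 5XFAD library. Without the second clustering Cd63 and Cadm1 turned to 0.713 and 0.902 there.

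For each counted member the split used the other counted members, so its values are a description. Igf1 had 2 and 59 UMIs in the 5XFAD library, or 34.4 and 503 CPM, and stood at 44.0 and 232 CPM in the other. Spp1 had 0 and 17 UMIs in the first and stood at 27.9 and 356 CPM in the other. Myo1e stood at 125 and 869.7 CPM and at 215 and 494 CPM. All 3 were higher in nuclei with other disease members, as was Lpl, at 50.7 and 244 CPM and at 48.7 and 171 CPM. Lyz2 was nearly level in the 5XFAD library, at 312 and 349 CPM, and higher in the other, at 196 and 529.8 CPM. Of the members with at least 20 UMIs, 7 of 8 and 10 of 10 were at least 1.5-fold higher, beside 19.1% and 14.2% of all genes. That limit sums UMIs over both sets of nuclei, so a sparse member can pass it through the set where it is high. Igf1 passed in the 5XFAD library on 2 and 59 UMIs. The shares of all genes, here and after thinning, come from the split by all counted members. They are thus not like for like, and no conclusion is drawn from these counts. Since nuclei with more disease members were deeper, the counts were also made after thinning. They were then 1 of 4 and 9 of 9 with 2 or more against 0 other disease members, and 1 of 2 and 3 of 6 with 3 or more, beside 16.0%, 11.8%, 18.2% and 15.2% of all genes. Thinned, with 2 or more, Igf1 was at ratios of 6.38 (2.08 to 26.0) and 3.48 (1.68 to 7.52), but with 3 or more at 1.05 (0.116 to 4.66) in the library labelled MR1 knockout. Myo1e was at 0.729 (0.237 to 1.92) and 1.52 (0.961 to 2.38), and Lpl at 1.24 (0.246 to 5.76) and 4.65 (1.71 to 14.6). At equal depth the higher level of Myo1e in both libraries, and of Lpl in 5XFAD, was therefore not seen beyond counting error.

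Outside the members, 1176 genes had at least 50 UMIs in each library. Of these, 68 were at least 1.5-fold higher in nuclei with 3 or more disease members in both libraries and 33 at least 1.5-fold lower. Ranked by the library with the smaller change, the most raised were Ctnna3, Lrrtm3, Lilrb4a, Olfr111 and Etl4. Ctnna3, an alpha-catenin, had 1 and 157 UMIs in nuclei with 0 and with 3 or more disease members of the 5XFAD library, against 13 and 117 in the other. Lrrtm3, a synaptic adhesion gene that lies within Ctnna3, so that their reads cannot be told apart here, had 1 and 54 and 8 and 51 UMIs. Lilrb4a, an inhibitory receptor of myeloid cells, had ratios of 6.49 and 4.59. By the same ranking the most lowered were 0610040J01Rik, Capn3, Selenom, Ndufa10 and Ddx6, at 0.333 to 0.577 and 0.456 to 0.564.

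The list of other disease genes stood at 13932 and 24516 CPM in nuclei with 0 and with 3 or more disease members of the 5XFAD library (ratio 1.76) and at 16482 and 38755 CPM in the other (2.35). The list of other homeostatic genes stood at 26661 and 23949.8 CPM (0.898) and at 23762 and 27723 CPM (1.17). So the first list was higher in both libraries, and the second lay on either side of 1. Border macrophage markers stood at 35.9 and 77.6 CPM and 108 and 80.9 CPM in the same nuclei, dentate granule neuron markers at 1724 and 1141 CPM and 1159 and 1032 CPM, and choroid plexus markers at 718 and 722 CPM and 3945 and 2934 CPM. T lymphocyte markers had 0 and 1 UMIs in the 5XFAD nuclei and were at 103 and 15.2 CPM in the others, and those of committed oligodendrocyte precursors were at ratios of 1.18 (0.713 to 2.02) and 1.47 (1.06 to 2.05). Endothelial markers had 2 and 21 UMIs and 13 and 42 UMIs. The part of this RNA in the split was not tested.

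Promoters are shown for Spp1 and Igf1, higher in nuclei with other disease members, and for Siglech and P2ry12, lower there in both libraries or in the one labelled MR1 knockout. Each is the 250 bases before a RefSeq start (GRCm38.p6), 5′ to 3′ on the gene's strand: Spp1 (chr5:104434861-104435110, plus strand), Igf1 (chr10:87860861-87861110, plus strand), P2ry12 (chr3:59262986-59263235, minus strand) and Siglech (chr7:55767934-55768183, plus strand). Capitals mark GAGGAA, a core hexamer of PU.1-type sites, or CACGTG, the E-box palindrome, both searched on both strands.
Spp1: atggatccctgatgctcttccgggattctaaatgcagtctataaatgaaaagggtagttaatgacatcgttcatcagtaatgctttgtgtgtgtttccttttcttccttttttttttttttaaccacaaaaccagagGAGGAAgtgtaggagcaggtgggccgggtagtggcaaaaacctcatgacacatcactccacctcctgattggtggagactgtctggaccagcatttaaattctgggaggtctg
Igf1: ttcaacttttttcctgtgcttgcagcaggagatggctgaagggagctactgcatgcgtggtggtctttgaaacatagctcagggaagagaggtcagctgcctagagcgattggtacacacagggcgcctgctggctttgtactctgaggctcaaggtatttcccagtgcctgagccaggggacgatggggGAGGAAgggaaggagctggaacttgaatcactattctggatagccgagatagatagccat
P2ry12: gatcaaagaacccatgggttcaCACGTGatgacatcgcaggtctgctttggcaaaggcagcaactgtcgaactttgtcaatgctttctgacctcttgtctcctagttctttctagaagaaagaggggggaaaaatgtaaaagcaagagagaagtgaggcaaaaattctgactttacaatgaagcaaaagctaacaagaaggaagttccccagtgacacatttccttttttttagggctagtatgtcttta
Siglech: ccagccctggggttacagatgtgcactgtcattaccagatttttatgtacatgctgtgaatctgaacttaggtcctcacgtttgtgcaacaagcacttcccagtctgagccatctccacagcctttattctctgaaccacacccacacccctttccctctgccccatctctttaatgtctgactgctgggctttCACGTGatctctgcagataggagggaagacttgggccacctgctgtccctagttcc

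Windows were matched by symbol for 23 members, 15 disease and 8 homeostatic. GAGGAA was found for 10 of them, 6 disease (Ank, Axl, Ccl3, Cd63, Igf1 and Spp1) and 4 homeostatic (Fcrls, P2ry13, Rasgrp3 and Tgfbr1), against 23.3% of all 32851 windows of that length. CACGTG was found for 2, P2ry12 and Siglech, against 6.02% of all windows. A gene can have several windows, and a match describes letters, not a binding site.

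Pairs of members in the same nuclei were counted against the number expected from each member's share of nuclei. The 105 pairs of disease members were found 1.46 and 1.45 times the expected number in the 5XFAD library and the other. The 195 pairs of a disease with a homeostatic member were at 1.09 and 1.06 times, and the 78 homeostatic pairs at 1.16 and 1.11 times. After thinning the values were 1.31 and 1.30 for disease pairs, 0.962 and 0.966 for mixed pairs and 1.11 and 1.05 for homeostatic pairs. An expectation from each gene's level in place of its share gave 1.14 and 1.02, 0.852 and 0.828 and 0.995 and 0.988 after thinning. The excess of disease pairs therefore depended on the expectation, while mixed pairs lay below 1 under both at equal depth and had the lowest value of the 3 kinds. From shares, thinned mixed pairs numbered 465 against 483 expected and 1285 against 1330.5. This gap is small and was not tested.

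By member, in thinned nuclei and from shares, Spp1 was found with other disease members 2.62 and 1.33 times the expected number and with homeostatic members 0.603 and 0.664 times. Igf1 was at 1.75 and 1.36 times with disease members and 0.936 and 0.879 times with homeostatic ones. Both paired more with disease than with homeostatic members. Cst7 was at 1.2 and 1.17 and Lpl at 1.09 and 1.47 times with disease members, and at 0.999 and 1.04 and 0.931 and 0.707 times with homeostatic ones. Siglech was at 0.753 and 0.853 times with disease members and 1.08 and 1.12 times with other homeostatic ones. Maf was at 0.777 and 0.703 times and 1.26 and 1.10 times, and P2ry12 at 0.866 and 0.801 times and 1.16 and 1.12 times. Gpr34 differed from these, at 1.17 and 1.11 times with disease members. These counts are sparse, and each value describes one library.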

How the data were processed

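Single-nucleus RNA was measured in 2 libraries, one per group. The authors deposited matrices of raw UMI counts per gene and barcode, made with Cell Ranger 7.0.0 per the file headers; the submitters' processing notes also name Seurat and mm10, with no role. How the counting treated strand and introns, and with which annotation release, is not given in the sources used here. In all, the files held 106861726 UMIs on 25238 barcodes (5XFAD) and 85678909 on 26212, against a target of 10000 nuclei per the labels. Of 32285 gene IDs, 32158 matched GENCODE M21 (GRCm38), which gave coordinates.

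Nuclei with at least 500 genes and under 5% mitochondrial UMIs were kept, less the 20.0% and 20.5% with Scrublet scores above a threshold set at 0.8% doublets per 1000 barcodes. Clustering (scanpy 1.11.5; 2500 variable genes, 40 components, Leiden resolution 1.5) left out the members. A cluster was named by 3 or more listed markers among its 50 leading genes detected in at least 20% of nuclei, so classes can differ from the study's. Clusters with microglial markers, mixed ones included, were clustered again, and sub-clusters with 3 markers of another class, or with both Xist and Y-linked RNA in at least 15% of nuclei, were left out. The second clustering, the 20% limit, the joint endothelial and mural class and the doublet threshold were chosen after seeing the data, the first after values of the members.

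UMIs were summed per library and class. Ratios carry exact conditional binomial, levels exact Poisson and shares exact Clopper-Pearson intervals; PCR and capture error are not covered. Ratios needed 20 UMIs, and 1.5-fold marked a gene. Nuclei are not replicates, so there was no test. Ratio intervals were tested on simulated Poisson counts only. These follow the error that the intervals assume and hold no clumping of UMIs within nuclei, so they do not check it. A female nucleus had 2 or more Xist and no Y-linked UMIs, a male one 1 or more Y-linked UMIs and no Xist. TMM scaling (edgeR 4.0.16) and other choices of nuclei, filters and cuts were tried.

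Named were all members, Mr1, Med12l and Csf1r; of the other lists, the 4 genes with most UMIs and the 2 highest and 2 lowest ratios on at least 50 UMIs; and up to 5 genes per direction of the split, a rule set after the files were seen; 1 gene that the rule names is not reported here. Members and lists were chosen with earlier results of these data known, and motifs and promoters after their values were seen.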

Additional observations from a re-analysis of the deposited data

Results flagged for a closer look

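In CA1 pyramidal neurons, 3 members had a ratio between the libraries on the other side of 1 from microglia, with both intervals clear of 1. The difference between the classes was not tested, and many members and classes were looked at. Igf1 had a ratio of 0.563 in microglia and 1.70 (1.05 to 2.77) in CA1 pyramidal neurons. Tgfbr1 had a ratio of 0.884 in microglia and 1.5 (1.12 to 2.01) in CA1 pyramidal neurons. Rasgrp3 had a ratio of 0.697 in microglia and 2.52 (1.06 to 6.43) in CA1 pyramidal neurons, the latter on few UMIs.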

How the results depend on the processing

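Of 157 alternative values of the main results, 97 stayed within their error or within 1.5 times a count. The 5 members past 1.5-fold between the libraries became 3 with a 10% mitochondrial limit, 13 with mixed clusters included, 9 with microglia chosen by marker counts, 9 in female and 3 in male nuclei, or 16.1% (all genes 25.4%) before and 9.68% (all genes 21.8%), 40.6% (all genes 22.4%), 28.1% (all genes 15.9%), 32.1% (all genes 29.3%) and 21.4% (all genes 28.4%) after. With marker counts Igf1 turned, at 1.04, and 15 members were highest in microglia. The median log2 ratio was 0.36 and 0.36 for disease members with mixed clusters and marker counts, 0.43 and 0.35 for homeostatic members, and -0.58 for these in male nuclei. The percent of nuclei with 3 or more disease members, in 5XFAD and the other library, was 54.0 and 55.2 with 1000 genes, 49.7 and 32.7 with mixed clusters, 23.7 and 20.2 with marker counts, 8.33 and 9.0 thinned, 72.9 and 54.0 over all disease members and 55.8 and 45.0 for 2 or more; it was 29.2 in 5XFAD male nuclei and 27.7 in the other library without the second clustering. The homeostatic ratio was 3.57 and 2.46 with marker counts, 1.2 in male nuclei and 1.2 over all disease members in 5XFAD, and 0.791 with mixed clusters and 0.710 without the second clustering in the other. The percent with a homeostatic member was 100 and 100 with 1000 genes, 100 and 98.6 in female, 85.7 and 91.7 in male nuclei, and 87.9 thinned in the other library. Mixed pairs were at 1.19 and 1.23 with mixed clusters, 1.97 and 1.67 with marker counts, 0.962 and 0.966 thinned, 1.17 and 1.12 without the second clustering and 0.725 and 0.770 expected from levels. Disease pairs were at 2.27 and 2.04 with marker counts, 1.31 and 1.30 thinned, 1.33 and 1.21 in male nuclei, 1.22 and 1.27 over all disease members and 0.853 and 0.929 from levels, and at 1.2 with 1000 genes and 1.59 with mixed clusters in the other library. The causes were not tested. The alternatives without the second clustering, with levels, and thinned with 2 or more disease members were chosen after seeing the data. A 1% mitochondrial limit left 0 microglia in 5XFAD and gave no value. No paired analysis was possible because each group is one library. Depth limits the members of few UMIs and the male nuclei most.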
